A study of Mus musculus with 6 samples.

Results

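The MYC network is a family of E-box binding transcription factors, and 10 of its genes and close outputs were examined among the 55401 genes of a deposited RNA sequencing table. The members were Myc itself, its obligate partner Max, the repressors Mxd1, Mxd4, Mxi1 and Mnt, the Max-like protein gene Mlx, the cyclin D genes Ccnd1 and Ccnd2, and Mir17hg, the RNA from which the miR-17 cluster is cut. They were chosen by name, with the MoS2 and PBS levels of these same libraries already known, so their differences between the groups are descriptions and carry no p-value. All 10 had enough counts to enter the fit over all genes.

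The cells were RAW264.7, a mouse macrophage-like line labelled wild type, grown in the same serum-supplemented medium in both groups. One group of 3 libraries received phosphate-buffered saline (PBS), and the other group of 3 received molybdenum disulfide (MoS2), a layered metal sulfide, at 6.25 µg/ml. No source used here states how long the cells were treated, and the labels do not say whether replicates were separate cultures. P-values therefore measure only the spread between these libraries, which may be technical, and all of them come from 1 cell line. The series' title speaks of MoS2 reshaping the surroundings of tumours, and macrophages are one cell type found there.

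MYC proteins bind DNA as dimers with MAX and are known to raise genes of growth, ribosome production and metabolism. MXD proteins and MNT compete for MAX and recruit SIN3 and histone deacetylases to the same CACGTG sites, while MLX pairs with the glucose-sensing factors MondoA and ChREBP as well as with some MXD proteins. MYC is known to activate the miR-17 cluster and to act on cyclin D genes, and in macrophages its level is known to follow growth factor signals. Several miRNAs of the cluster are known to dampen cell cycle inhibitors, E2F factors and TGF-beta signalling.

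Mir17hg (ENSMUSG00000089726.2, GRCm38 chromosome 14, 115042879 to 115046727, plus strand) carries 6 hairpins within its annotated exons, from Mir17 at 792 bases to the end of Mir92-1 at 1627 bases after the gene's start. The mature sequences are shown because they define what this transcript encodes. They come from RefSeq on GRCm38.p6, and the capitals mark the seed, bases 2 to 8, which pairs with target mRNAs.
miR-17-5p: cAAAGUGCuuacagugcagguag
miR-20a-5p: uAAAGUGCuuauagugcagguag
miR-18a-5p: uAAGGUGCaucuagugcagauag
miR-19a-3p: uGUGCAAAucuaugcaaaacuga
miR-19b-3p: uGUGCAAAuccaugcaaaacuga
miR-92a-3p: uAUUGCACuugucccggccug
The 6 miRNAs fall into 4 seed groups. miR-17-5p and miR-20a-5p share AAAGUGC, miR-19a-3p and miR-19b-3p share GUGCAAA, and miR-18a-5p and miR-92a-3p each have a seed of their own. A paralogous cluster within the Mcm7 gene on chromosome 5 repeats both the first and the last of these seeds.
miR-106b-5p: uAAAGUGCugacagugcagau
miR-93-5p: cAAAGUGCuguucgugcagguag
miR-25-3p: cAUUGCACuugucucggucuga

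Libraries held 17008020 to 17695883 counts with PBS and 15767618 to 18412762 with MoS2, and the Pearson r of log levels, taken over genes, which are not independent replicates, was 0.988 to 0.993 for libraries of one group and 0.863 to 0.872 across groups. The 5 genes most abundant with MoS2 (Spp1, Fth1, Ftl1, Hspa5 and Eef1a1) took 14.9% to 15.6% of MoS2 counts and 2.31% to 2.62% of PBS counts. Levels are CPM, counts per library size scaled with TMM factors, which assume that most genes do not change. Scaling by library totals alone lowers log2 fold changes by a median of 0.77 relative to TMM. The value with library totals is given for the 10 genes and for some other named genes whose sign or call it changed. It is not given for the cell type markers below, whose signs and calls are those of TMM. Of 12972 genes tested with edgeR's quasi-likelihood test, 80.7% were called at an adjusted p under 0.05 (38.3% higher and 42.4% lower with MoS2). The median log2 fold change of all tested genes was -0.08. Of 10 macrophage markers 9 averaged at least 1 CPM in both groups, and only Mertk did not. Their summed level was 7657 to 7836 CPM with PBS and 5196 to 5450 CPM with MoS2, and its part in the results was not tested. The sum rests mostly on Lyz2 (means of 3624 and 1976 CPM) and Csf1r (1909 and 513 CPM). Of the 9 tested markers 4 were called lower (with Fcgr1 and Spi1), 2 higher (Itgam at 1.47 and Cd68 at 1.09 in log2) and 3 were not called (Cd14, Adgre1 and Ptprc). Marker lists of T cells, B cells, fibroblasts, epithelium and neutrophils each summed to at most 0.738 CPM in any library.

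Of the 10 members, 3 were called higher with MoS2 (Myc, Mxd1 and Mlx), 5 lower (Mxd4, Mxi1, Mnt, Mir17hg and Ccnd1) and 2 were not called (Max and Ccnd2). The background for that call is 80.7% of all tested genes. Groups did not overlap for the same 8 genes, as for 81.9% of all tested genes (38.8% with MoS2 above and 43.1% with MoS2 below). The members were chosen on this contrast, and nothing is read from these counts. Their log2 fold changes ran from -4.97 to 3.36, with a median of -0.06. With library totals 2 were called higher and 7 lower, where 85.7% of all genes were called, 18% higher and 67.7% lower.

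**Figure D1:**
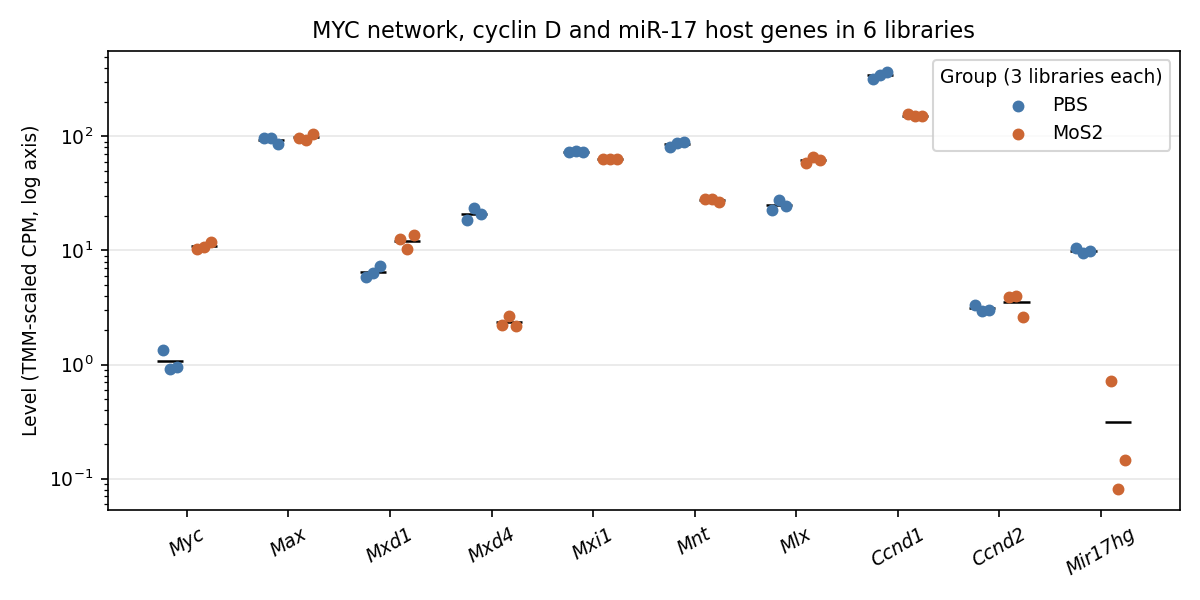
Levels of the 10 genes in each library, as TMM-scaled CPM on a log axis, with PBS in blue, MoS2 in orange and a bar at the mean of each group. Myc sits between 0.912 and 1.34 CPM with PBS and between 10.3 and 11.9 CPM with MoS2, Mir17hg lies at or under 0.719 CPM in every MoS2 library, and Max and Ccnd2 overlap between the groups.

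Myc (ENSMUSG00000022346.16, GRCm38 chromosome 15, 61985391 to 61990374, plus strand) was low with PBS. Its level was 1.34, 0.912 and 0.944 CPM in the PBS libraries and 10.3, 10.8 and 11.9 CPM in the MoS2 libraries. Every MoS2 library lay far above every PBS library. The counts behind these levels were 31, 21 and 21 with PBS and 129, 133 and 163 with MoS2, so the PBS level rests on few reads. The log2 fold change was 3.36 ± 0.20 (SE), and 2.59 with library totals. Leaving out each library in turn gave 3.25 to 3.56. Among all tested genes this fold change stood at percentile 98.3, while the PBS level stood at percentile 10.7.

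The related gene Mycn (ENSMUSG00000037169.15), whose protein also dimerizes with MAX, is not among the 10 but sets the scale for Myc. Mycn stood at 1038 ± 33.8 CPM with PBS and 745 ± 31.1 CPM with MoS2 (SD, n = 3). It fell by 0.48 ± 0.06 on the log2 scale (edgeR adjusted p = 5.0e-06) and lay lower in each of 3 MoS2 libraries than in any PBS library. Per kilobase of exon, Mycn exceeded Myc 657-fold, 939-fold and 877-fold in the PBS libraries and 60.9-fold, 54.3-fold and 53.0-fold in the MoS2 libraries. These ratios are taken within a library and do not depend on its scaling. Myc thus made up 0.124% ± 0.0245 of the reads per kilobase of both genes with PBS and 1.76% ± 0.125 with MoS2 (SD, n = 3). Summed, Myc and Mycn were 12.2 ± 0.561 times as abundant per kilobase as Max with PBS and 8.40 ± 0.314 times with MoS2.

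Max (ENSMUSG00000059436.13, GRCm38 chromosome 12, 76937269 to 76962201, minus strand) encodes the partner that MYC, MXD and MNT proteins share. It was at 97.4, 96.4 and 85.3 CPM with PBS and at 97.1, 93.4 and 105.7 CPM with MoS2. The groups overlapped. The log2 fold change of 0.09 ± 0.07 did not pass the threshold, and its sign depended on scaling, at -0.69 with library totals, where it was called lower, and -0.044 with upper-quartile factors. With the length trend removed it was called higher, at 0.23. Max varied little on the TMM scale, and ratios to it within a library do not depend on that library's scaling. Such ratios still keep any trend on gene length, which was not removed from them. Myc over Max per kilobase went from 0.0152 ± 0.00291 to 0.148 ± 0.00639 (SD, n = 3).

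The 4 repressor genes went different ways. Mxd1 (ENSMUSG00000001156.9, chromosome 6, 86647042 to 86669161, minus strand) encodes MAD1, known from cells that leave the cycle. Its levels of 5.85, 6.38 and 7.32 CPM with PBS and 12.6, 10.3 and 13.6 CPM with MoS2 did not overlap. The log2 fold change was 0.90 ± 0.15 with TMM but 0.13, with no call, when scaled by library totals. Relative to Max within each library, the summed repressors were nevertheless fewer with MoS2, at 0.650, 0.664 and 0.584 reads per kilobase for each of Max, against 1.16, 1.24 and 1.42 with PBS.

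Mxd4 (ENSMUSG00000037235.13, chromosome 5, 34173883 to 34187720, minus strand) encodes MAD4, a further MXD repressor. It was at 18.3, 23.4 and 20.7 CPM with PBS and at 2.24, 2.67 and 2.19 CPM with MoS2. All MoS2 libraries lay well under all PBS libraries, with counts of 28, 33 and 30 against 423, 538 and 461. The log2 fold change was -3.13 ± 0.16, and -3.91 with library totals. From the summed counts Mxd4 was 8.81-fold lower with MoS2, with a 95% counting interval of 7.124 to 11.01 that covers counting error only. The ratio of Mxd1 to Mxd4 per kilobase, free of scaling, went from 0.383, 0.328 and 0.424 with PBS to 6.77, 4.62 and 7.44 with MoS2, so the more abundant of the pair differed between the groups.

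Mnt (ENSMUSG00000000282.12, chromosome 11, 74830920 to 74845725, plus strand) encodes the broadly expressed antagonist of MYC. Its levels were 81.3, 86.9 and 90.0 CPM with PBS and 28.4, 28.5 and 26.6 CPM with MoS2. The groups stood far apart, with a log2 fold change of -1.63 ± 0.08 and -2.40 with library totals. Mxi1 (ENSMUSG00000025025.14, chromosome 19, 53310518 to 53375810, plus strand), a second MXD relative, lay at 73.4, 74.1 and 73.3 CPM with PBS and at 63.7, 63.5 and 63.0 CPM with MoS2. These values did not overlap and varied little within a group, yet the log2 fold change was only -0.22 ± 0.06. It was -0.99 with library totals and 0.077, with no call, once each library's trend on gene length was removed.

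As shares of the reads per kilobase over the 4 repressor genes, Mnt went from 56.8% ± 0.894 to 34.8% ± 1.15 and Mxi1 from 32.96% ± 1.26 to 53.7% ± 0.353 (SD, n = 3). Mxi1 thus took the place of Mnt as the most abundant of the 4. Mxd4 went from 7.48% ± 0.712 to 1.61% ± 0.187, and Mxd1 from 2.81% ± 0.233 to 9.94% ± 1.40. Summed Myc and Mycn per summed repressor stood at 9.64 ± 0.685 with PBS and 13.3 ± 0.543 with MoS2.

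**Figure D2:**
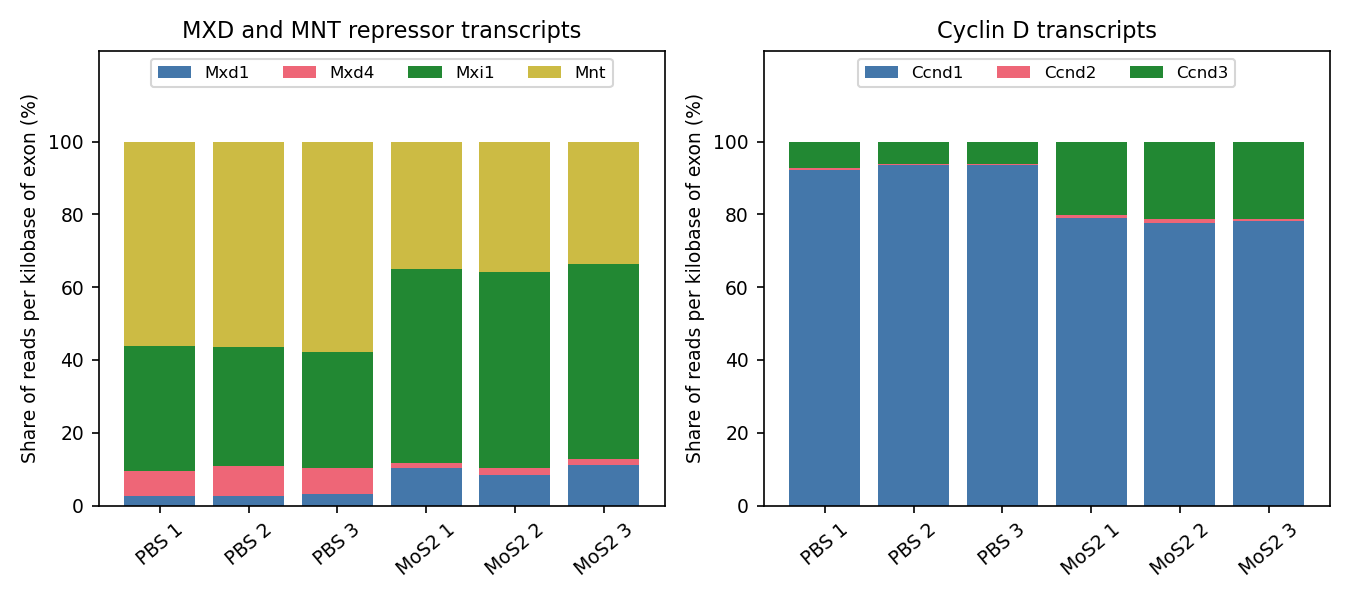
Composition of the 4 MXD and MNT repressor transcripts (left) and of the 3 cyclin D transcripts (right) in each library, as percent of reads per kilobase of exon. Mxi1 is the widest band of the repressors in all 3 MoS2 libraries and Mnt in all 3 PBS libraries, and Ccnd3 goes from 6.41% to 20.9% of the cyclin D reads.

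Mlx (ENSMUSG00000017801.15, chromosome 11, 101087277 to 101092207, plus strand) encodes the partner of the glucose-sensing arm. It was at 22.7, 27.6 and 24.4 CPM with PBS and at 58.5, 65.8 and 62.0 CPM with MoS2. The groups were well separated, with a log2 fold change of 1.32 ± 0.09 and 0.55 with library totals. Relative to Max per kilobase, Mlx went from 0.483 ± 0.0552 to 1.14 ± 0.116 (SD, n = 3), so that it passed Max in every MoS2 library. Mlx shares 385 exonic bases with Psmc3ip on the opposite strand, whose own log2 fold change was 0.26. No source used here states whether counting used strand, so reads of such a pair cannot be told apart.

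Of 6 further genes, 4 were tested, none was called higher and 2 lower (42.4% of all tested genes were), with a median log2 fold change of -0.43. With library totals all 4 tested were called lower, as were 67.7% of all genes. Besides Mycn these were the MondoA gene Mlxip, which fell by 0.38 ± 0.12 (edgeR adjusted p = 0.010, means of 61.7 against 80.4 CPM with overlapping libraries). Its call was lost with the length trend removed, at -0.06. The list's count of lower calls was 1 without MoS2 replicate 3 and 3 without MoS2 replicate 1. Mxd3 (2.05 ± 0.334 and 1.23 ± 0.528 CPM) and the large MAX partner Mga (a log2 fold change of 0.04) were not called with TMM, and had -1.51 and -0.73 with library totals. Mycl had no count in any library and the ChREBP gene Mlxipl averaged at most 0.118 CPM in a group, so neither was tested.

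**Figure D3:**
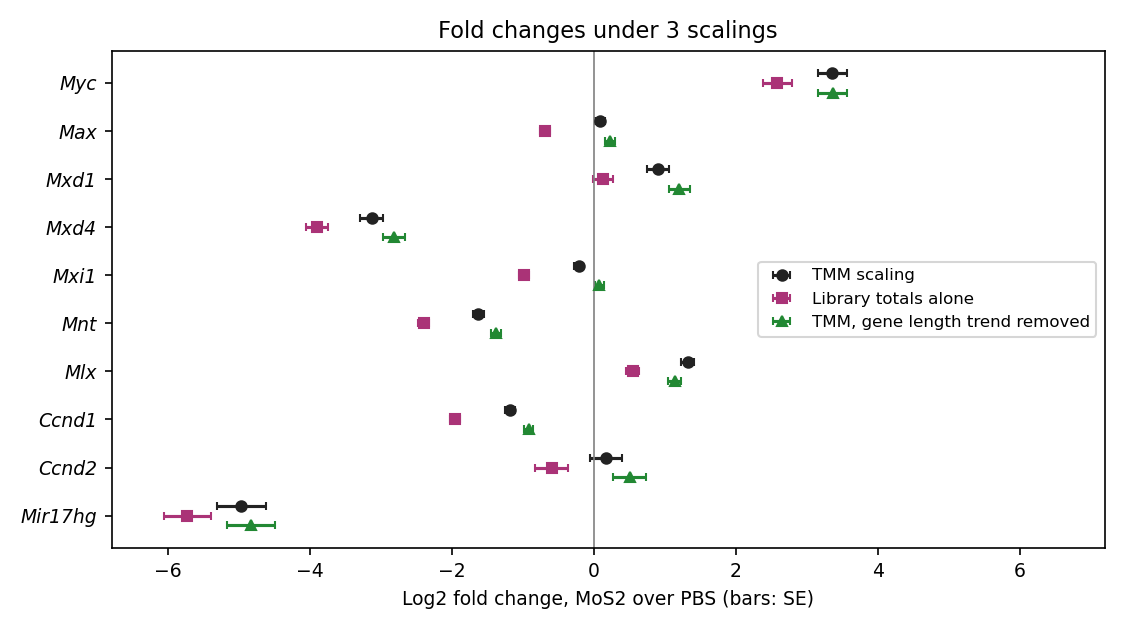
Log2 fold changes of MoS2 over PBS for the 10 genes under TMM scaling (black), library totals alone (purple) and TMM with each library's trend on gene length removed (green), with bars of 1 SE. Myc, Mxd1, Mlx, Mxd4, Mnt, Ccnd1 and Mir17hg keep their side of 0 under all 3, while Max, Mxi1 and Ccnd2 cross it.

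Promoters of the network genes were searched for the E-box CACGTG, a palindrome that reads the same on both strands, in RefSeq windows (GRCm38.p6) from 250 bases before to 50 after a start site. For Myc, Ccnd1 and Ccnd2 there was no entry, and the Mir17hg window lies inside the deposited gene and was not used. It occurred in 7.15% of all 32851 windows of that length. It was found once each for Mxd4, Mnt, Mlx and Max, and in neither the window of Mxd1 nor the 3 windows of Mxi1. The matches are shown 5′ to 3′ on the gene's strand because they are the sequence through which the network is known to act, with the motif in capitals.
Mxd4: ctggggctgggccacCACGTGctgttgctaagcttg
Mnt: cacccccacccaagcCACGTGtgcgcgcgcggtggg
Mlx: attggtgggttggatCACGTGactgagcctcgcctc
Max: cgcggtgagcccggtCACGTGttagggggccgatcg
The motifs lie at chr5:34187924-34187929, chr11:74830801-74830806, chr11:101087250-101087255 and chr12:76962246-76962251. The 4 genes with the motif had log2 fold changes of -3.13, -1.63, 1.32 and 0.09, with both signs among them. A match is a description of these letters and not a measured binding site.

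Mir17hg was the member with the largest difference. Its levels were 10.6, 9.47 and 9.89 CPM with PBS and 0.719, 0.0811 and 0.146 CPM with MoS2. The MoS2 libraries held 9, 1 and 2 reads against 244, 218 and 220 with PBS, so MoS2 replicate 1 supplied most of what remained. From the summed counts the host transcript was 32.0-fold lower with MoS2 (95% counting interval 18.2 to 62.3, covering counting error only). Without MoS2 replicate 1 it was 86.5-fold lower (29.5 to 421), on 3 counts. The fitted log2 fold change was -4.97 ± 0.35, or -5.73 with library totals, and -6.35 without that library. By fold change it ranked 82 from the lowest among 12972 tested genes. None of the 6 hairpin genes inside it had a count in any library. Each hairpin lies wholly within exons of Mir17hg on the same strand. No source used here says how reads shared by a hairpin and its host were assigned, so these zeros say nothing about hairpin levels. Hairpins are cut from the host transcript in the nucleus. These libraries measure the host and not the mature miRNAs printed above.

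The paralogous cluster has a host that was far better covered. Mcm7, a subunit of the replication helicase, went from 126 ± 1.86 to 51.9 ± 1.94 CPM (SD, n = 3), or -1.28 ± 0.06 in log2 (adjusted p = 4.3e-10, edgeR), and was lower in each of 3 MoS2 libraries. Both hosts of the AAAGUGC seed that could be tested were therefore lower with MoS2. Of the hairpin genes within Mcm7, Mir106b had 3 counts in PBS replicate 2 and none elsewhere, and Mir93 and Mir25 had none. The hairpins on the X chromosome, Mir106a to Mir363, had no counts. These hairpin counts were likewise not read as levels of hairpins or mature miRNAs.

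Genes of miRNA processing were compared beside the host. Of 13 tested 3 rose and 9 fell, where 38.3% and 42.4% of all genes did, with a median log2 fold change of -0.78 against -0.08 for all genes. With library totals 0 rose and 11 fell, beside 18% and 67.7% of all genes. Dgcr8, which guides the nuclear cut of hairpins, fell from 30.2 ± 2.19 to 2.27 ± 0.345 CPM, or -3.72 ± 0.14 in log2 (adjusted p = 3.2e-11, edgeR). The Argonaute gene Ago1 and the silencing scaffolds Tnrc6c and Tnrc6b had log2 fold changes of -1.80, -1.68 and -1.26. The slicer gene Ago2 had -0.06 and was not called, but was called lower with library totals, at -0.83.

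**Figure D4:**
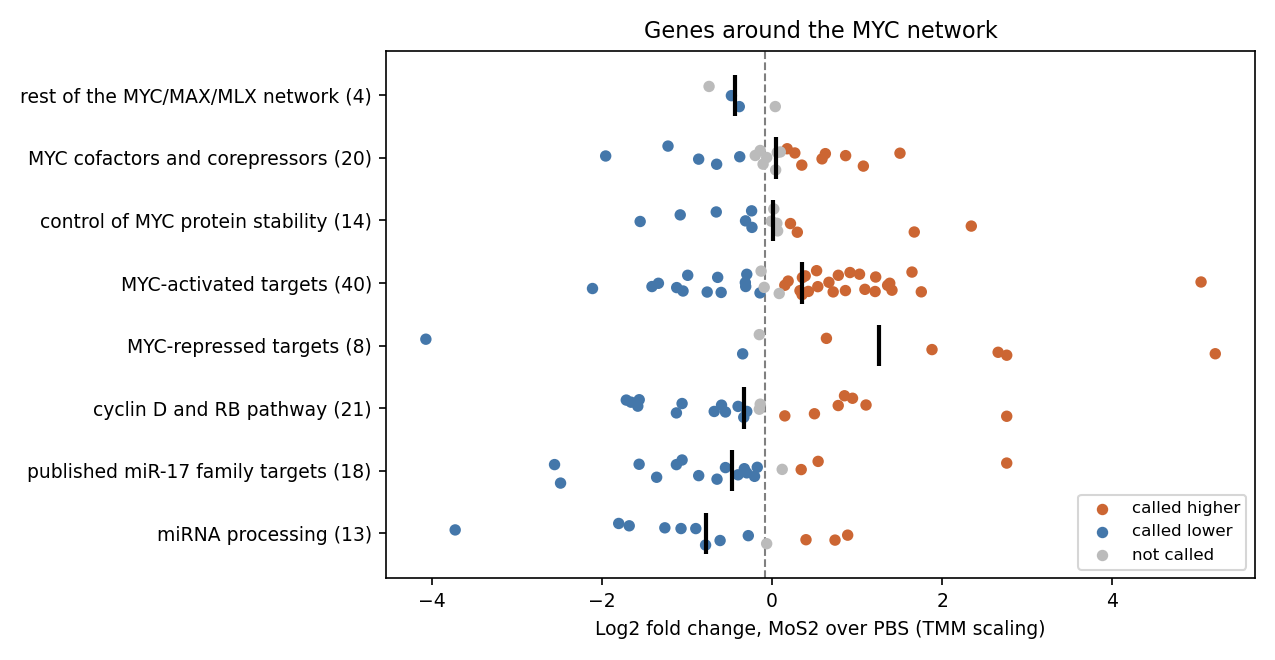
Log2 fold changes of MoS2 over PBS (TMM) for tested genes of each list, called higher in orange, lower in blue and not called in gray, with the number tested in parentheses, a black bar at each list's median and a dashed line at the median of all tested genes. The miRNA processing and miR-17 target lists have medians of -0.78 and -0.47, and MYC-activated targets a median of 0.36 with genes on both sides.

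Ccnd1 (ENSMUSG00000070348.5, chromosome 7, 144929931 to 144939925, minus strand) encodes cyclin D1, which starts the cell cycle with CDK4 and CDK6. Its levels were 320, 347 and 369 CPM with PBS and 157, 150.3 and 149.5 CPM with MoS2. The groups stood apart, with a log2 fold change of -1.18 ± 0.07 and -1.95 with library totals. Ccnd1 shares 1100 exonic bases with LTO1 on the opposite strand, which had 230 to 317 counts with PBS and 114 to 139 with MoS2, small numbers beside the 7371 to 8221 and 1854 to 2044 of Ccnd1.

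Ccnd2 (ENSMUSG00000000184.12, chromosome 6, 127125162 to 127152193, minus strand) encodes cyclin D2 and was low throughout. It lay at 3.34, 2.95 and 3.01 CPM with PBS and at 3.91, 3.97 and 2.63 CPM with MoS2. MoS2 replicate 3 was under all PBS libraries and the other 2 were above them, so the groups overlapped. The log2 fold change of 0.17 ± 0.23 was not called, and it was -0.60 with library totals, where it was. Ccnd3, the cyclin D gene outside the 10, rose from 44.1 ± 2.44 to 75.6 ± 1.05 CPM (log2 fold change 0.78 ± 0.07, edgeR adjusted p = 1.8e-07, higher in 3 of 3 libraries), but had 0.01 and no call with library totals. Within a library Ccnd3 per Ccnd1 went from 0.0689 ± 0.00790 to 0.267 ± 0.0106 reads per kilobase (SD, n = 3). Of all cyclin D reads per kilobase, Ccnd1 held 93.2% ± 0.735 with PBS and 78.2% ± 0.625 with MoS2, and Ccnd2 0.421% ± 0.0539 and 0.900% ± 0.185.

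Around cyclin D, 21 of 24 genes of the RB pathway were tested, of which 7 rose and 12 fell (38.3% and 42.4% of all genes), with a median of -0.33 against -0.08. With library totals 2 rose and 16 fell (18% and 67.7% of all genes). Cdkn1a, the p53-responsive inhibitor of cyclin-dependent kinases, rose by 2.76 ± 0.06 on the log2 scale (edgeR adjusted p = 2.4e-13), from 95.5 ± 2.86 to 647 ± 18.5 CPM. The CDK4 inhibitor Cdkn2d rose by 1.11, or 0.33 with library totals. Other inhibitor genes of the list did not rise: Cdkn2c was called lower, at -0.68, and Cdkn1b, at -0.15, was not called with TMM. The falls included Rbl1, an RB relative (-1.56), and the E2F factors E2f8 (-1.71), E2f7 (-1.66), E2f3 (-1.12) and E2f1 (-1.06). Among the other E2F genes E2f6 (-0.59) and E2f2 (-0.30) fell, E2f5 rose by 0.95, and E2f4, at -0.14, was not called. Values of these other E2F genes with library totals are not given here. The 2 cyclin E genes differed in direction under TMM, with Ccne1 at 0.85 and Ccne2 at -1.58, although Ccne1 had 0.08 and no call with library totals. Cdk4 and Cdk6 rose by 0.15 and 0.50, which became -0.62 and -0.27 with library totals, and the Cdk4 libraries overlapped. With upper-quartile factors Cdk4 was at 0.020 and not called. Cdkn2b and Cdkn1c had no counts and Cdkn2a averaged at most 0.0434 CPM.

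Sites that match the seeds of the cluster were looked for in 1 annotated 3′ UTR of each of the 9 protein-coding members (GENCODE M21, longest coding sequence). The DNA letters searched on the transcript strand were GCACTTT for miR-17-5p and miR-20a-5p, GCACCTT for miR-18a-5p, TTTGCAC for the miR-19 pair and GTGCAAT for miR-92a-3p. Among 11155 tested genes with such a UTR, 13.02%, 7.94%, 11.4% and 6.50% held the respective letters. Ccnd1, Ccnd2 and Mnt each held GCACTTT once and TTTGCAC once, Mxd4 held TTTGCAC once, and Myc, Max, Mxd1, Mxi1 and Mlx held neither. The GCACTTT sites are shown because the seed of miR-17-5p and miR-20a-5p could pair there.
Ccnd1: ccatttcaaaGCACTTTtggtc
Ccnd2: cattagaaaaGCACTTTgaaaa
Mnt: acctcccaggGCACTTTattat
They lie at chr7:144931676-144931682, chr6:127129340-127129346 and chr11:74844638-74844644 on GRCm38, within the 3′ UTR of each gene. The 3 genes had log2 fold changes of -1.18, 0.17 and -1.63. A match is a description of letters and not of pairing in these cells.

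Published targets of the miR-17 family were described as a group. Of 18 tested 3 rose and 14 fell, where 38.3% and 42.4% of all genes did, with a median log2 fold change of -0.47 against -0.08. Cdkn1a, E2f1, E2f2, E2f3, Rb1 and Rbl2 are also in the RB pathway list above, so the counts of these lists are not independent. With library totals 1 rose and 17 fell, beside 18% and 67.7% of all genes. With the length trend removed the split was 5 higher and 9 lower. Cdkn1a was the list's largest rise. The TGF-beta receptor Tgfbr2 fell from 321 ± 35.5 to 57.4 ± 1.83 CPM, the zinc finger repressor Zbtb4 had a log2 fold change of -2.56, and the kinase Mapk14 of -1.56. Thbs1 and Ccn2 had no counts.

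Of 40 tested genes that MYC is known to activate 24 rose and 13 fell, where 38.3% and 42.4% of all genes did, with a median of 0.36 against -0.08. With library totals 10 rose and 25 fell, beside 18% and 67.7% of all genes, and the median was -0.42 against -0.85. Odc1, the ornithine decarboxylase that starts polyamine synthesis, rose from 310 ± 16.9 to 10201 ± 181 CPM, or 5.04 ± 0.07 in log2 (adjusted p = 2.2e-15, edgeR, higher in 3 of 3 libraries). The cap-binding factor Eif4e and the ribosomal RNA processing gene Rrp9 rose by 1.65 and 1.75, while the amino acid transporter Slc7a5 had -1.41. The spermidine synthase gene Srm, at 0.09, was not called, but was called lower with library totals, at -0.69.

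Genes that MYC is known to repress had 5 higher and 2 lower of 8 tested, where 38.3% and 42.4% of all genes were, with a median of 1.26 against -0.08. With library totals 4 were higher and 4 lower, beside 18% and 67.7%. Gadd45b, a stress-induced growth regulator, rose by 5.21 ± 0.09 and Ndrg1 by 1.88 ± 0.06, beside Cdkn1a. The myeloid transcription factor gene Cebpa fell from 31.5 ± 2.02 to 1.88 ± 0.328 CPM, or -4.07 ± 0.15 in log2 (adjusted p = 1.8e-11, edgeR). Cdkn1b, at -0.15, was not called with TMM, but was called lower with upper-quartile factors (-0.28) and library totals (-0.92).

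Cofactors that MYC and MXD proteins recruit numbered 20, and 8 rose and 5 fell (38.3% and 42.4% of all genes), with a median log2 fold change of 0.05. With library totals 2 rose and 16 fell (18% and 67.7% of all genes). The MYC-binding zinc finger gene Zbtb17 (MIZ1) rose from 32.0 ± 0.972 to 90.9 ± 3.03 CPM, and the chromatin remodeller subunit Smarcb1 fell from 44.3 ± 3.93 to 11.4 ± 1.67 CPM. Sin3b, a corepressor scaffold for MXD proteins, rose by 1.07 ± 0.07 (edgeR adjusted p = 7.2e-09), and the helicase-like Ruvbl2 by 0.87, or 0.09 with library totals. The deacetylase gene Hdac1, at 0.04, was not called, and was called lower with library totals, at -0.73. Sin3a, the paralogous scaffold, had -0.86 and was called lower under TMM and library totals alike, and it was named after its value was seen.

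Enzymes that set the life of MYC protein numbered 14, and 4 rose and 6 fell (38.3% and 42.4% of all genes), with a median log2 fold change of 0.01. With library totals 2 rose and 12 fell (18% and 67.7% of all genes), and with the length trend removed 7 rose and 3 fell. The kinases Pim1 and Pim2, known to stabilize MYC, rose by 1.67 ± 0.06 and 2.34 ± 0.14 (edgeR adjusted p = 3.6e-11 and 2.0e-09). The ubiquitin ligase genes Huwe1 and Fbxw7, the latter known for marking phosphorylated MYC for destruction, had log2 fold changes of -1.55 and -1.08. Aurka, at -0.0072, was not called, and was called lower with library totals, at -0.78. MYC protein itself was not measured.

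TPM, a relative level that removes gene length, was scaled to each library's own total without TMM factors. Differences between the groups in TPM are therefore not those of TMM-scaled CPM, and only the order within a group is described. In TPM the order of levels with PBS was Ccnd1 at 312 ± 28.9, Max at 110 ± 5.62, Mnt at 79.1 ± 5.59, Mlx at 52.9 ± 5.34 and Mxi1 at 45.9 ± 0.884. Below them came Mir17hg at 12.0 ± 0.647, Mxd4 at 10.4 ± 1.29, Mxd1 at 3.93 ± 0.535, Myc at 1.67 ± 0.355 and Ccnd2 at 1.40 ± 0.0822. Neighbours whose libraries overlapped were Mir17hg with Mxd4 and Myc with Ccnd2. With MoS2 the order was Ccnd1 at 58.4 ± 3.44, Mlx at 56.1 ± 5.11, Max at 49.4 ± 0.819, Mxi1 at 16.8 ± 0.864 and Mnt at 10.9 ± 0.908. Myc followed at 7.30 ± 0.354, then Mxd1 at 3.09 ± 0.306, Ccnd2 at 0.677 ± 0.172, Mxd4 at 0.506 ± 0.0787 and Mir17hg at 0.161 ± 0.181 (SD, n = 3). There the libraries of Ccnd1 and Mlx overlapped, as did those of Ccnd2 and Mxd4.

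The genes whose pattern was most like that of 2 members were found as the smallest distance between centred log2 profiles over the 6 libraries. Candidates were 9344 tested genes averaging at least 5 CPM, limited to protein-coding genes and host genes recognized by name. For Myc the nearest genes included Blvrb and Sqstm1, at distances of 0.243 and 0.256 and with log2 fold changes of 2.82 and 2.79. For Mir17hg they were Lrrc14, Fndc10 and Rbak, at larger distances of 0.465, 0.580 and 0.590 and with -4.15, -3.96 and -4.39. The profiles add 0.5 CPM before the log, which shrinks the differences of genes with low levels. With only 2 groups, this likeness mostly reflects a similar difference between them after that step.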

How the data were processed

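The authors deposited whole-number read counts per gene for 6 libraries, not normalized. The submitters' processing notes list the tools fastp (version 0.20.0), HISAT2 (version 2.1.0) and featureCounts (version 1.6.1). Those notes name a human build, but all identifiers are mouse genes, and 54349 of 55401 have the version and coordinates of GENCODE M21 (GRCm38). No source used here says how multiply mapped reads were counted. Columns were matched to samples by letter and replicate number, and genes to symbols by unversioned identifier (55141 matched). Gene length was taken from the deposited table.

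Genes passing edgeR's default filter (about 10 counts in 3 libraries) were tested with the quasi-likelihood F test of edgeR 4.0.16 in R 4.3.3, with TMM factors, and Benjamini-Hochberg adjustment over all 12972. Fold changes use a prior count of 0.125, and each SE is the size of the log2 change divided by the root of its F statistic. No pair of libraries agreed within sampling noise (chi-square per degree of freedom of at least 3.03). On simulated counts of 12972 genes, edgeR recovered 79.1% of 1.5-fold, 92.5% of 2-fold and 98.5% of 4-fold changes. Only 67, 67 and 66 genes were changed by these folds, up or down at random, with the same dispersion for every gene. In the data 80.7% of tested genes were called, so these rates need not hold there. Alternatives included DESeq2 1.42.0 and limma-voom (limma 3.58.1).

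The members and lists were chosen with earlier results of these data known. Some lists share genes, so their counts are not independent. Named were all members, any gene of the network, cyclin D and miR-17 locus lists, and from other lists the 4 genes with the smallest adjusted p and the one with the largest. Some genes that this rule names are not reported here. All 204 list entries matched a gene, 1 through another symbol.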

Additional observations from a re-analysis of the deposited data

How the results depend on the processing

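Calls for the 10 genes were 3 higher and 5 lower in every fit that left out 1 library. With library totals alone the genes called were 2334 higher and 8786 lower, against 4964 and 5502. With the same scaling the network list had 4 lower, cofactors 2 higher and 16 lower, MYC protein stability 2 higher and 12 lower, activated targets 10 higher and 25 lower, repressed targets 4 lower, the cyclin D list 2 higher, miR-17 targets 1 higher and miRNA processing 0 higher. With the gene length trend removed the network list had 1 higher, protein stability 7 higher and 3 lower, and miR-17 targets 5 higher and 9 lower. With no low-count filter cofactors had 8 lower. Leaving out 1 library gave 1 to 3 lower in the network list, with 1 without MoS2 replicate 3. The cause of these changes was not tested. Max was at -0.044 with upper-quartile factors and -0.69 with library totals, where it was called lower, and was called higher at 0.23 with the length trend removed. Mxi1 was at 0.077 with the length trend removed, and Ccnd2 at -0.60 and Mxd1 at 0.13 with library totals. With the replicate number as a block 4848 genes were higher and 5355 lower, and no member changed its call. Deviations from the group mean in same-numbered libraries had r of -0.0272, 0.00775 and -0.200. For differently numbered libraries r ran from -0.183 to 0.209. With 3 libraries a group, these values cannot decide whether the numbers pair libraries. Depth limits Myc with PBS and Mir17hg with MoS2, which rest on 73 and 12 counts in all.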

Other observations

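Across tested genes, those whose 3′ UTR held a seed match of the miR-17 cluster had slightly lower medians. For GCACTTT the median log2 fold change was -0.24 in 1452 genes with the letters and -0.09 in 9703 without, but the former had longer UTRs, with a median of 2376 against 775 bases. Within a class of UTRs of intermediate length (medians of 1283 and 1017 bases) the fold change medians were -0.29 and -0.18. For TTTGCAC they were -0.35 and -0.18 in that class, and for GCACCTT both were -0.20. These values are a description and were not tested.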
